A study of Mus musculus with 4 samples.

Results

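The genes described are 10 parts of the mammalian circadian clock: the activators Arntl (also called Bmal1) and Clock, the repressors Per1, Per2, Per3, Cry1, Cry2, Nr1d1 and Nr1d2, and the output gene Dbp. They were found as the array rows, control spots left out, whose gene name equals one of these symbols, which gave 25 probes for 10 of the 36918 gene names on the array. All 10 had a probe that passed the background filter, set at 2 or more of the 4 arrays, and were among the 19093 genes tested. Of their probes, 14 were well above background on all 4 arrays and 2 on none. In the clock, the proteins of Arntl and Clock pair and bind E-box sequences, and so switch on the Per and Cry genes, whose proteins return to the nucleus and inhibit that pair. Nr1d1 and Nr1d2 encode the nuclear receptors REV-ERB alpha and beta, which are switched on by the same pair and repress Arntl, while ROR receptors activate it through the same DNA elements. Dbp is a transcription factor gene driven through E-boxes, and its protein passes the rhythm on to other genes through D-boxes.

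The samples were cultured mouse pancreatic cancer cells of the C57BL/6 strain, called K5 and K6. Of each, 1 sample was a control given the solvent DMSO and 1 received 100 nM halofuginone during 24 hours. This compound blocks prolyl-tRNA synthetase and so mimics a shortage of proline. What separates K5 from K6, at what clock phase the cells were, and whether the samples came from separate cultures are not given in the sources used here, so each p-value below concerns only the spread between these 4 samples.

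Every sample was measured on a 1-colour Agilent array, all on 1 slide, and the share of spots well above background ran from 47.2% to 54.0%, higher on both halofuginone arrays than on both controls. All 7 epithelial and ductal markers, keratins, Epcam, Cdh1 and Sox9, were well above background on all 4 arrays. Among markers of other cells, 5 of 6 immune, 1 of 7 fibroblast and stellate, 1 of 6 acinar and 0 of 4 endothelial markers were. Lum, Pdgfrb, Cdh5, Amy2a5, Cpa1, Prss1 and Prss2 were above it on no array. The summed immune signal, in multiples of each array's 75th percentile, was 27.7 and 30.8 in controls and 9.91 and 13.6 after halofuginone. For the fibroblast list it was 16.1 and 18.2 against 9.42 and 12.0, for the acinar list 2.34 and 3.62 against 0.399 and 0.690, and for the endothelial list 0.0705 and 0.114 against 0.124 and 0.454. The epithelial sum was 703 and 923 in controls against 982 and 986. Their part in the results below was not tested.

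Clock proteins can act on one another's genes through the DNA just upstream. The 250 bases before the start site are therefore shown for 3 genes that rose and for Dbp, which did not pass. They are RefSeq sequences of build GRCm38.p6, whereas probe positions below are on mm9. Capitals mark matches on either strand to CACGTG (the E-box), CACGTT (a weaker form of it), TTATGTAA and TTACGTAA (D-boxes), AGGTCA (the core of the REV-ERB and ROR element), TGACGTCA (the cyclic AMP response element) and TGATGNAAT (the element of the amino acid response). Nr1d1 is at chr11:98775378-98775627, Nr1d2 at chr14:18239107-18239356 and Cry1 at chr10:85185055-85185304, all on the minus strand, and Dbp is at chr7:45704997-45705246 on the plus strand.
Nr1d1: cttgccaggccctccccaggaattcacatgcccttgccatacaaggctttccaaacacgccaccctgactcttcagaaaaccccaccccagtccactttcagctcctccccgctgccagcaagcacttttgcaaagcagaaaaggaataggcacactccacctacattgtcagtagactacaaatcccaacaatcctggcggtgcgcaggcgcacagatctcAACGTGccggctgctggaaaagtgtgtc
Nr1d2: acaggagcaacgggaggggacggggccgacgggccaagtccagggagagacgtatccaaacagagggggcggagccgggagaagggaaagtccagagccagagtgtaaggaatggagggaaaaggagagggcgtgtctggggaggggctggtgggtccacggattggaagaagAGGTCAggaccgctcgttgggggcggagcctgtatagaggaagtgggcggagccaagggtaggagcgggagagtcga
Cry1: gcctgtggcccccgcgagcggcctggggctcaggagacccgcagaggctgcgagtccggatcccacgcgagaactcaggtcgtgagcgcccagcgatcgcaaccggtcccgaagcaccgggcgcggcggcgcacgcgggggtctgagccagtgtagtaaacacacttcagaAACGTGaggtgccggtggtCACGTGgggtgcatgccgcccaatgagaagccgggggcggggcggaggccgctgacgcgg
Dbp: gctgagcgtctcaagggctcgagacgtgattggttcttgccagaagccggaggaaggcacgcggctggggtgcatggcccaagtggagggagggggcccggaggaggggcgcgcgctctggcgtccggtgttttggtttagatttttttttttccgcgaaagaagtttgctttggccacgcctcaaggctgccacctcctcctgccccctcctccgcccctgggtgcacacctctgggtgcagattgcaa

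The Nr1d1 window held CACGTT on the opposite strand, its capitals starting 28 bases before the start site. By the same measure, the Cry1 window held CACGTT at 79 bases, also on the opposite strand, and CACGTG at 60. AGGTCA stood in the Nr1d2 window at 77 bases, and the Dbp window held none of these letters. RefSeq windows were found for 9 of the 10 genes (all but Per2), 13 in all, since Arntl, Clock and Per1 have several start sites. Among the others, 1 Per1 window held CACGTG and AGGTCA, and 1 Clock window held AGGTCA. The other windows of Per1 and Clock, and both Arntl windows, held none of these letters. Cry2 held CACGTT and Per3 held TTATGTAA at 2 places. TTACGTAA, TGACGTCA and TGATGNAAT stood in none of the 13. Of 32851 mouse windows of the same length, 6.02% held CACGTG, 3.85% CACGTT, 14.0% AGGTCA, 0.819% TTATGTAA, 0.113% TTACGTAA, 1.55% TGACGTCA and 0.816% TGATGNAAT. A match is a string of letters in this window and does not show that a protein bound there. DNA outside the windows was not searched, so an empty window, as for Dbp, does not show that the gene lacks such elements.

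After halofuginone, 5 of the 10 clock genes rose in both lines, each read by its brightest probe. These were the repressors Nr1d1, Cry1, Nr1d2 and Per2 and the activator Clock, by 2.84-fold to 14.8-fold. The other well-measured Clock probe changed by only 0.18 on the log2 scale. The Cry1 probe passed the filter only with its treated arrays. By its brightest probe, no clock gene passed as lower. At an unadjusted p under 0.05 limma gave 6 of the 10 as higher (17.1% of tested genes), Arntl being the sixth. Arntl and Per1 had higher values after treatment in both lines without passing the test, and Cry2, Per3 and Dbp had mean changes of 0.34 or less on the log2 scale in either direction. Of all 19093 tested genes 3.88% passed as higher and 5.12% as lower (limma with the line as a block, Benjamini-Hochberg over all tested genes, threshold 0.05). The median log2 change was 1.45 over the 10 clock genes and 0.0069 over all tested genes. A level is the log2 processed signal less the 75th percentile of that array. Each gene is read by its brightest probe, chosen by the mean over all 4 arrays, treated ones included. That choice aside, levels are compared within a probe only. In samples of whole cultures, fewer cells that express a gene and less RNA per cell cannot be told apart.

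**Figure D1:**
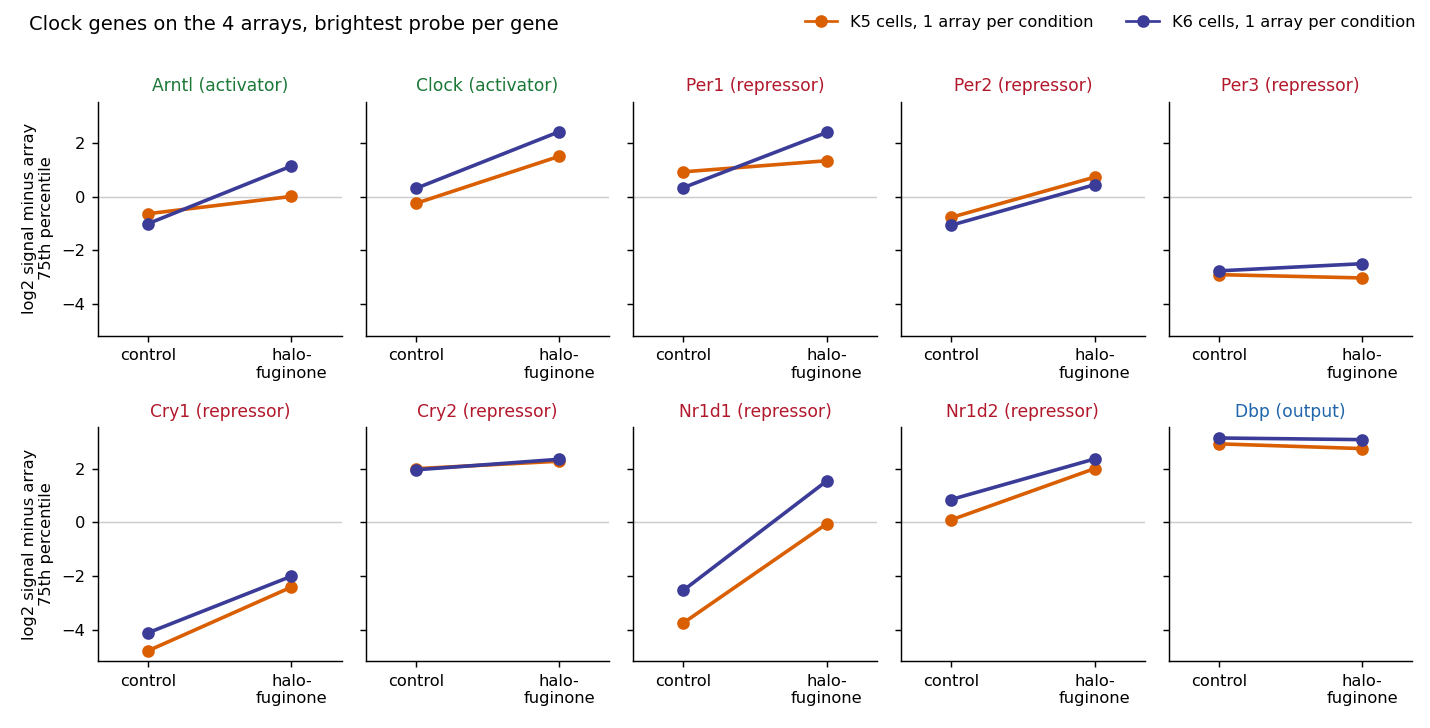
Level of each clock gene (log2 signal minus the array's 75th percentile, vertical axis) on the 4 arrays, control at the left and halofuginone at the right of each panel, with K5 and K6 as separate lines of 1 array per condition. Nr1d1 climbs most steeply, from -3.75 to -0.049 in K5 and from -2.53 to 1.55 in K6, while the lines of Dbp, Cry2 and Per3 are nearly flat.

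Nr1d1 had the largest change of the 10. Its level went from -3.75 to -0.049 in K5 and from -2.53 to 1.55 in K6. In the scanner's processed intensity these were 50.6 and 841 in K5 and 152 and 2395 in K6. Both treated samples lay far above both controls, 13.0-fold in K5 and 16.9-fold in K6. The mean rise was 3.89 (SE 0.27, limma adjusted p = 0.036), which ranked 64 among the tested genes ordered from the largest rise. The K5 control lay near the lowest signal well above background on that array, -4.14. With normexp background correction the mean rise was 3.14 (limma adjusted p = 0.00029). Nr1d1 has 1 probe on the array, at mm9 chr11:98630526-98631028 on the minus strand, and this span is longer than the 60 bases of the probe, so the probe crosses an exon junction of the spliced transcript. It is shown since the largest change of the set rests on it alone.
Nr1d1 probe: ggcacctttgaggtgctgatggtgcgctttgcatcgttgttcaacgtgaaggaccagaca

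Nr1d2, the close relative of Nr1d1, was at 0.093 in K5 control cells, 2.01 in treated K5 cells, 0.85 in K6 control cells and 2.37 in treated K6 cells. The treated samples did not overlap the controls, and the rise was 1.71 (SE 0.27, limma adjusted p = 0.047), or 3.28-fold. All 3 Nr1d2 probes, the brightest at mm9 chr14:19036568-19036627 and the others just beside it, read alike, with mean changes of 1.71, 1.69 and 1.81.

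The cryptochromes, which block the activator pair directly, gave unlike values. Cry1 was at -4.79 in K5 control cells, -2.41 in treated K5 cells, -4.12 in K6 control cells and -2.01 in treated K6 cells. As read it rose by 2.24 (SE 0.26, limma adjusted p = 0.039), or 4.74-fold. The K5 control was not well above background, so the K5 change is a bound, at least 3.32-fold higher against the lowest signal well above background on that array. The K6 control lay near this limit on its own array, -4.23. Above background on 1 control array, the probe passed the filter only with the treated arrays. The mean change was 1.21 with normexp background correction, under which the gene still passed (adjusted p = 0.0095). A dimmer Cry1 probe, above background on neither control array, had changes of 1.17 in K5 and 0.87 in K6 as read. That probe passed the filter only through the treated arrays, so it is no separate support. Cry2 was at 2.0 in K5 control cells, 2.28 in treated K5 cells, 1.96 in K6 control cells and 2.35 in treated K6 cells, a mean change of 0.34 (SE 0.26, limma adjusted p = 0.41). Cry2 controls lay below treated samples by 0.28 in K5 and 0.39 in K6. Its other 2 probes, which the array design assigns to Ensembl transcripts, had 1.06 and, as read, 1.67 in K5 against -0.15 and -0.42 in K6. The K5 control of the second was not well above background, so its K5 change was at least 2.16-fold. Both probes were higher in K5 and lower in K6 after treatment, a difference that was not tested. The difference between Cry1 and Cry2 was not tested.

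Of the period genes, whose proteins carry the cryptochromes into the repressor complex, Per2 rose by nearly the same amount in both lines. It was at -0.77 in K5 control cells, 0.73 in treated K5 cells, -1.07 in K6 control cells and 0.44 in treated K6 cells. These are changes of 1.5 and 1.51, with a mean rise of 1.51 (SE 0.26, limma adjusted p = 0.049). With the mean over both probes the change was 0.73 and did not pass. The other probe, at mm9 chr1:93336538-93336597, was well above background on 1 of 4 arrays and gave -0.63 in K5 and 0.55 in K6. Per1, which responds quickly to stress and hormone signals in many cells, was at 0.92 in K5 control cells, 1.34 in treated K5 cells, 0.34 in K6 control cells and 2.40 in treated K6 cells. Treated samples lay above both controls, but by 0.41 in K5 and 2.06 in K6, and the mean change of 1.24 (SE 0.49) did not pass (limma adjusted p = 0.17), though it did with normexp background correction (1.21, adjusted p = 0.037). Its other probe, for a transcript kept in a cDNA record, was above background on no array.

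Per3 was at -2.91 in K5 control cells, -3.03 in treated K5 cells, -2.77 in K6 control cells and -2.50 in treated K6 cells, and these groups overlapped. Its mean change was 0.072 (SE 0.27, limma adjusted p = 0.87), and this sign turned with scaling on probes detected on all 4 arrays (-0.027) and with the mean over probes (-0.18). Another Per3 probe past the filter read 0.78 in K5, where the control was not well above background, and -0.099 in K6, and the third was above background on no array.

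Among the activators, Clock was at -0.25 in K5 control cells, 1.5 in treated K5 cells, 0.30 in K6 control cells and 2.42 in treated K6 cells. The rise of 1.94 (SE 0.27, limma adjusted p = 0.044), or 3.83-fold, was of like size in both lines, 1.76 and 2.12. It was not shared by the gene's other well-measured probe. In controls both probes were about equally bright (means 0.025 and -0.021), the probe that rose being slightly brighter. Their means over all 4 arrays, used for the choice, differed mainly through the treated arrays. The probe that rose lies at mm9 chr5:76641377-76641436, and the other at chr5:76639992-76640051, further along the same transcript record, read only 0.16 in K5 and 0.20 in K6 (mean 0.18, SE 0.26, adjusted p = 0.66 with every probe fitted on its own). A dim Clock probe for a cDNA record, at chr5:76664578-76664637, was above background on the halofuginone arrays alone and at least 1.84-fold higher there. It passed the filter only through those arrays, so its rise is no separate support. The fourth probe, above background on 1 array, was not tested. With the mean over its probes, Clock changed by 1.32 and did not pass (adjusted p = 0.080).

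Arntl, which makes the partner of Clock, was at -0.64 in K5 control cells, 0.0067 in treated K5 cells, -1.01 in K6 control cells and 1.14 in treated K6 cells. Both treated samples were above both controls, by 0.64 in K5 and 2.15 in K6, and the mean change of 1.40 (SE 0.46) did not pass (limma adjusted p = 0.13). It passed with normexp (adjusted p = 0.026) and where a gene had to clear background on all 4 arrays (adjusted p = 0.045). All 3 Arntl probes showed the smaller change in K5, at 0.46 to 0.95 as read against 2.15 to 2.64 in K6. The probe with 2.64 had a K6 control not well above background, so its K6 change was at least 5.29-fold. For the dimmest, above background on neither control, the change was at least 1.80-fold in K5 and 4.19-fold in K6. The dimmest probe and the one with 2.64 passed the filter only with the treated arrays, so neither is separate support.

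Dbp, the output gene, was at 2.93 in K5 control cells, 2.75 in treated K5 cells, 3.15 in K6 control cells and 3.09 in treated K6 cells, and the groups overlapped. The mean change was -0.12 (SE 0.26, limma adjusted p = 0.77) at this probe. The other Dbp probe, at mm9 chr7:52965461-52965520 further along the transcript, gave -0.51 in K5 and -0.69 in K6 (mean -0.60, adjusted p = 0.21 with every probe fitted on its own). It was well above background on all 4 arrays, and both treated samples lay below both controls. By the brightest probe, 28.6% of tested genes did so. Neither probe was higher after halofuginone in either line. With every probe fitted on its own, 3 probes of the clock genes passed, the brightest of Clock, Cry1 and Nr1d1, and 2.09% of all probes passed as higher.

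**Figure D2:**
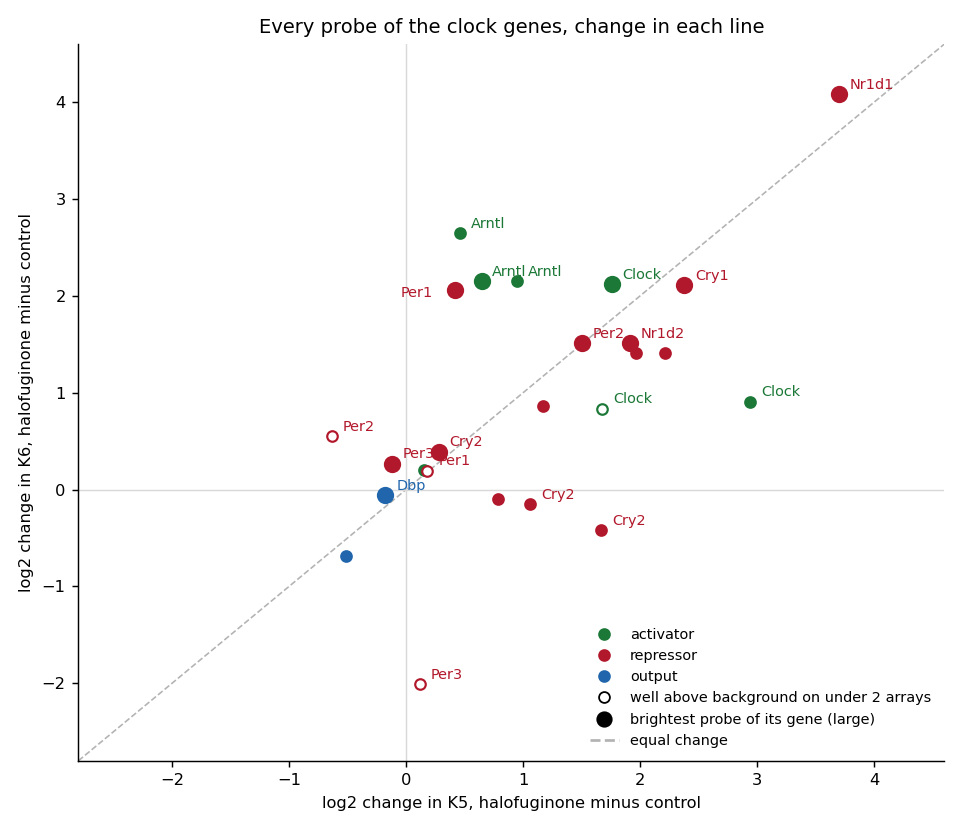
Log2 change after halofuginone in K5 (horizontal) and K6 (vertical) for each of the 25 probes of the clock genes, coloured by arm (symbols as in the key; the dashed line marks equal change). Nr1d1 stands alone at the upper right (3.70 and 4.08), the Arntl probes and the large Per1 point lie above the dashed line, and the Clock probes are spread apart.

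Read within a line, where 1 array per condition allows no test, 5 clock genes were at least 2-fold higher in K5 (14.0% of tested genes were) and 7 in K6 (16.3%). The same 5 as passed the test were so in both lines, against 8.56% of tested genes, and no clock gene was at least 2-fold lower (15.0% and 16.4% of tested genes in each line, 9.65% in both). By the brightest probe, both halofuginone samples lay above both controls for 8 of the 10, which held for 29.9% of tested genes. For none did they lie below by that probe (28.6%). The lines differed most for Per1 and Arntl: the K6 change exceeded the K5 change by 1.65 for Per1 and 1.51 for Arntl. A difference at least as large in size was seen in 7.44% and 8.88% of tested genes. For Per2 the lines differed by 0.011, a value that 98.5% of tested genes reached or exceeded. These differences between lines were not tested.

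**Figure D3:**
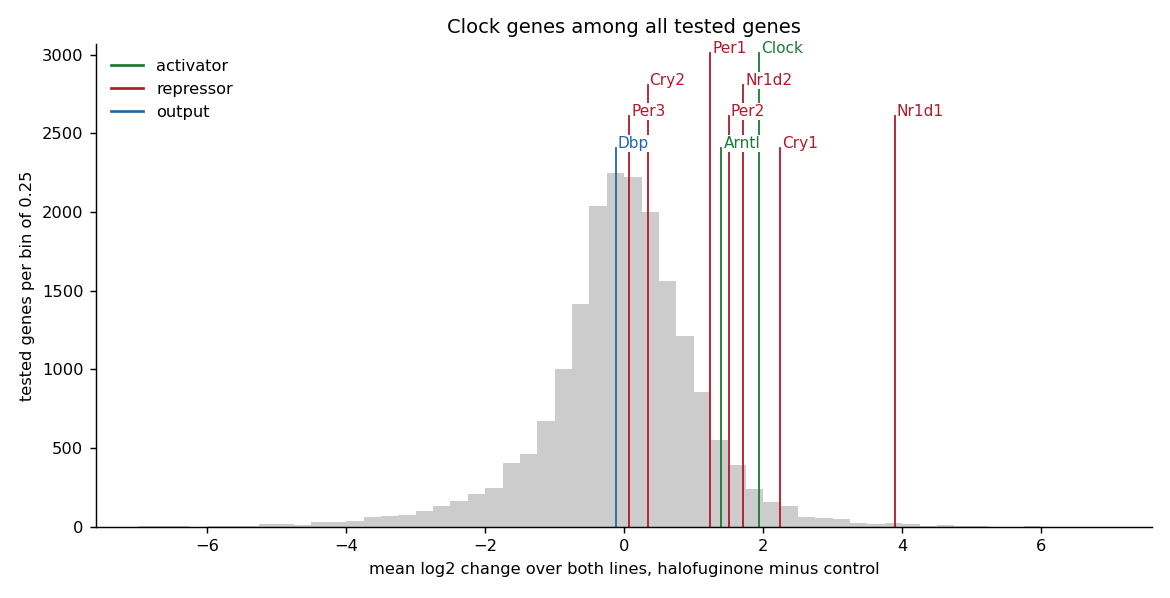
Histogram of the mean log2 change after halofuginone over both lines for 19093 tested genes (grey, bins of 0.25), with a vertical line for each clock gene, coloured by arm. Nr1d1 (3.89) lies in the thin right tail, 6 other genes lie between 1.24 and 2.24, and Dbp, Per3 and Cry2 sit near the centre.

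The calls rest on a fit with 1 residual degree of freedom, in which every SE leans on the variance pooled over genes, and the 5 adjusted p-values, from 0.036 to 0.049, lie close to the threshold. Without the line as a block limma called 0 clock genes (6 at an unadjusted p under 0.05, 0 of all tested genes), and 0 were also called without a filter, with dim values at a common floor or with scaling on probes detected on all 4 arrays, settings that called 0 of all tested genes. Averaging the probes of a gene left Nr1d1 as the clock gene called (adjusted p = 0.048).

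**Figure D4:**
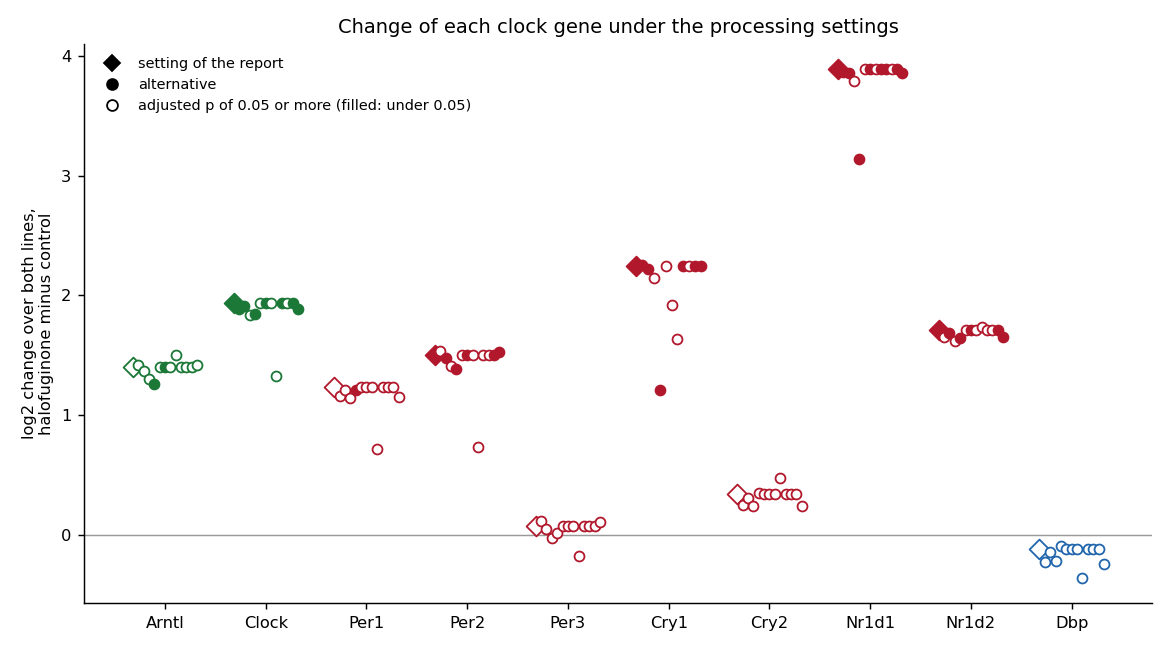
Mean log2 change after halofuginone (vertical axis) of each clock gene under the setting of the report (diamond) and under each alternative (circles), filled where the adjusted p was under 0.05. Nr1d1 stays between 3.14 and 3.89, while Clock reaches down to 1.32, Cry1 to 1.21 and Per2 to 0.73.

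Between the lines, with treatment in the same fit, 0 of the 10 clock genes passed, and 0.173% of all tested genes did. At an unadjusted p under 0.05 limma gave 1 clock gene, Nr1d1, against 15.5% of tested genes in either direction and 7.49% as higher in K6. Nr1d1 was higher in K6 than in K5 in both conditions, by 1.41 on the log2 scale (SE 0.27, limma adjusted p = 0.16). Clock had 0.74 (SE 0.27, adjusted p = 0.33) and Nr1d2 0.56 (SE 0.27, adjusted p = 0.42). Per2 was the member with a negative difference, -0.29 (SE 0.26), and Cry2 had 0.015 (SE 0.26).

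Around these genes stands a wider clock network, taken as a list of 28 genes, of which 23 were measured. Npas2, Rorb, Hlf, Fbxl21 and Usp2 had probes but were too dim for the test. Of the 23, 1 rose (Lonrf3), 1 fell and 21 did not pass. Over all tested genes 3.88% passed as higher and 5.12% as lower, which is near these counts. The median log2 change was 0.33 against 0.0069 over all tested genes. Rora, whose receptor activates Arntl, had -0.43 in K5 and 2.23 in K6.

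Lonrf3, a ring finger gene whose transcript cycles in several tissues, was at 0.29 in K5 control cells, 2.11 in treated K5 cells, -0.090 in K6 control cells and 2.66 in treated K6 cells. It rose by 2.29 (SE 0.34, limma adjusted p = 0.045), and its other probe gave 2.11 and 2.90. Ciart, which encodes a repressor of the activator pair, had the largest upward change on the list, 2.13 in K5 and 4.09 in K6, and just missed the threshold (mean 3.11, SE 0.55, adjusted p = 0.052). Bhlhe41, which competes for E-boxes, had 1.62 and 1.36 (adjusted p = 0.052), with the K5 control not well above background, so that the K5 change was at least 2.85-fold. Its other probe gave 2.86 and 2.54 as read, but was above background on the halofuginone arrays alone and is no separate support. With the mean over probes Bhlhe41 changed by 2.10 and passed (limma adjusted p = 0.049). Csnk1e, a casein kinase that marks PER proteins for breakdown, had 1.36 and 1.72 (adjusted p = 0.051). Another Csnk1e probe read 1.34 and 1.70, but the third, well above background on all 4 arrays, read only 0.26 and 0.67. Nfil3, a repressor at D-boxes, had 0.63 and 2.71 (adjusted p = 0.14), and the tetraspanin gene Tspan4 0.99 and 1.82 (adjusted p = 0.076). Arntl2, the paralog of Arntl, had values of the opposite sign to Arntl, -0.91 in K5 and -1.92 in K6 (mean -1.42, SE 0.36, adjusted p = 0.084). The difference from Arntl was not tested.

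**Figure D5:**
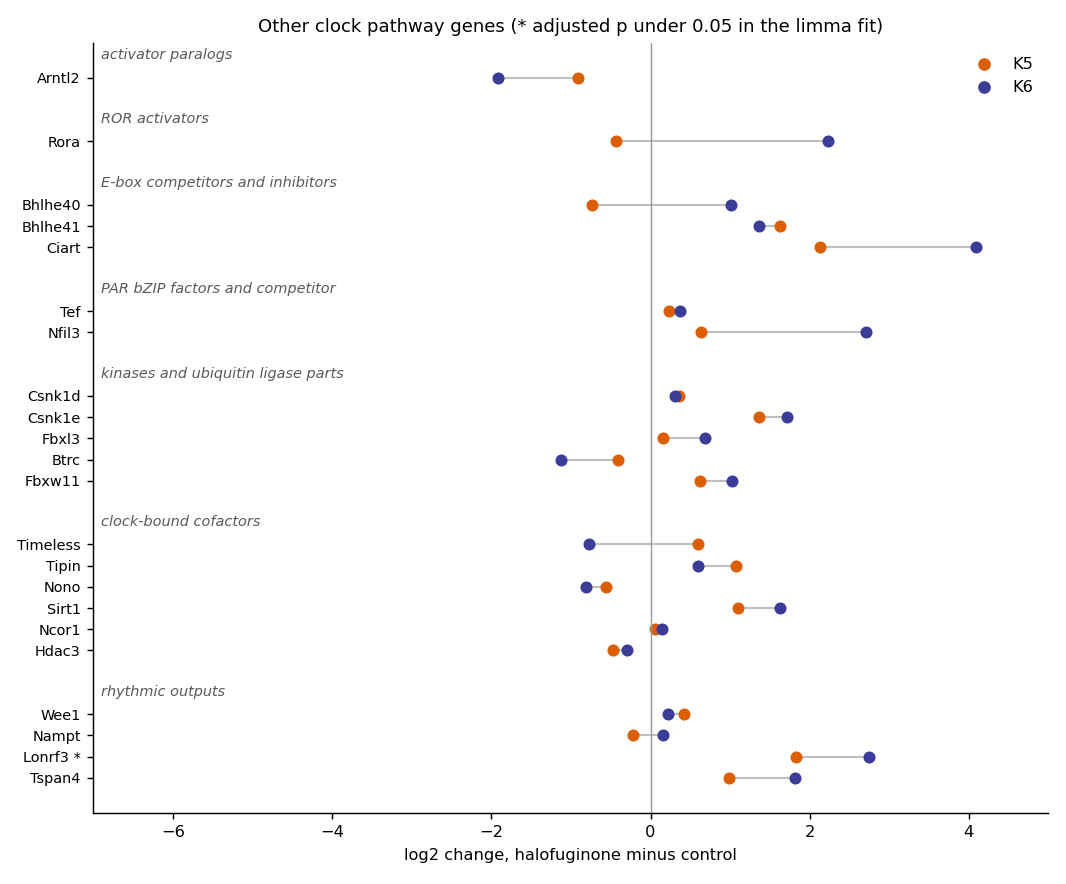
Log2 change after halofuginone in K5 and K6 (points, horizontal axis) for the genes of the wider clock list named on the vertical axis, grouped by role, with an asterisk where the adjusted p of the limma fit was under 0.05. Ciart (2.13 and 4.09) and Lonrf3 lie to the right, Arntl2 to the left, and Rora and Bhlhe40 on both sides of 0.

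The pattern of a gene over the 4 arrays, as its levels centred on their own mean, was set against 12996 named genes outside both lists, and likeness is the Euclidean distance over the 4 arrays on the log2 scale, smaller being closer. Nearest to Nr1d1 were Plagl1 (distance 0.33), Gdf15 (0.49) and Insm1 (0.52). Nearest to Clock, the activator with the larger change, were Klf10 (0.14), Apol8 (0.16) and Frmd6 (0.19). Nearest to Dbp were Zswim1 (0.010), Pdxdc1 (0.038) and Slx4 (0.049). With 4 arrays the distance is a description only.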

How the data were processed

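Per the labels' protocols, total RNA was labelled with the dye Cy3 for 1-colour Agilent arrays. The deposited scanner intensity is the processed signal, which per the file headers came from Feature Extraction 10.7.1.1 (9.5.1.1 per the submitters' processing notes), background-subtracted and detrended within each array and not normalized between arrays. Deposited flags mark outliers, saturation (0 spots) and signal well above background. The authors' deposited value table, a linear intensity with 1 common median, served as an alternative, and how it was made is not given in the sources used.

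Outlier spots and 301 probes without a usable spot were left out, and spots of 1 probe were averaged. Each processed signal was put on the log2 scale and the 75th percentile of the array subtracted. The brightest probe, by its mean over all 4 arrays, treated ones included, stands for a gene. A gene was tested if 2 or more arrays had that probe well above background. limma 3.58.1 in R 4.3.3 (lmFit, eBayes) fitted treatment and line together, with 1 residual and 2.97 prior degrees of freedom, and was tested on simulated data. The numbers 5 and 6 in the sample names mark the same cells, so they pair samples; over tested genes, the difference K6 minus K5 in controls and in treated samples had r = 0.50. The number of arrays limits the precision.

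The clock genes, the wider list and the rules for naming genes were chosen with earlier results of these data known. All 10 clock genes are named. Of the wider list, those past the threshold and the 6 others with the largest mean change are named, except 1 gene that is not reported here, and Rora, Bhlhe40, Timeless, Nampt and Ncor1 were added after their values were seen. For the clock gene with the largest change in each arm, the 3 genes nearest in pattern are named. Folds against a group or array not well above background are bounds, set against the higher of the probe's own signal and the lowest signal of a probe well above background on that array. These limits were -4.14 and -4.23 on the control arrays and -4.90 and -4.99 on the halofuginone arrays. Sequences come from RefSeq (GRCm38.p6) and, for the probe, from the scanner files.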

Additional observations from a re-analysis of the deposited data

Results flagged for a closer look

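For 1 clock gene and 4 genes of the wider list the change after halofuginone pointed opposite ways in K5 and K6, and the difference was not tested for any of them. Per3 read -0.12 in K5 and 0.27 in K6. Rora, a receptor gene that activates Arntl, read -0.43 in K5 and 2.23 in K6. Bhlhe40, whose protein competes for E-boxes, read -0.74 in K5 and 1.01 in K6. Timeless read 0.60 in K5 and -0.78 in K6, and Nampt, an enzyme of NAD synthesis, read -0.22 in K5 and 0.16 in K6. Over all 19093 tested genes, 4444 had opposite signs in the lines.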

How the results depend on the processing

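Over 12 alternatives, 9 of the 10 clock genes kept the direction of their change after halofuginone wherever they were tested. Per3 turned to -0.027 with scaling on probes detected on all 4 arrays and to -0.18 with the mean over probes. For K6 minus K5, Cry2 turned to -0.017 (quantile normalization), -0.053 (median centring) and -0.020 (the authors' table), and Ncor1 of the wider list turned to -0.0073 after halofuginone in the authors' table. Past the threshold in the setting of the report were 5 clock genes, 2 of the wider list and 1718 of all tested genes after halofuginone, and 33 between the lines. Clock genes past it numbered 3 with quantile normalization, 3 with every probe fitted on its own and 1 with the mean over probes, but 7 with normexp, where Arntl and Per1 also passed. With the filter on all 4 arrays it was 5 of 9, Arntl among them, and Cry1 was not tested.

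Of the wider list, 5 passed with median centring, 10 with normexp, 7 with the filter on all 4 arrays, 9 with a variance trend in eBayes, 4 in the authors' table and 1 with every probe fitted on its own. Of all tested genes, 4996 passed with normexp, 3995 with the filter on all 4 arrays, 4217 with the trend and 585 with the mean over probes. Between the lines, 128 passed with quantile normalization, 290 with median centring, 930 with normexp, 303 with the filter on all 4 arrays, 312 with the trend and 152 in the authors' table. None passed (0) with every probe on its own, where limma gave 4136 at an unadjusted p under 0.05, nor (0) with the mean over probes, where it gave 2722.

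Every one of these counts was 0 in limma under 4 settings. At an unadjusted p under 0.05 the number of all tested genes after halofuginone was then 6317 with scaling on probes detected on all 4 arrays, 15061 without a filter, 5842 with dim values at a common floor and 4494 without the replicate block. The clock genes among these were 6, 5, 5 and 6. Between the lines these were 2694, 3651, 2512 and 798. The cause was not tested. For single clock genes after halofuginone, 86 results kept their side of the threshold, 28 lost it, 3 gained it and 2 reversed. Nr1d1 passed in 8 of 12 alternatives, Clock in 7, Cry1 in 6 of 11, Nr1d2 and Per2 in 5. Without a filter the median change of all genes was -0.35 on the log2 scale. With 1 line left out each change is that of the other line, and has no test. Signal over background limits Cry1 in control K5, and control K6 lay near the limit.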
